A study of Homo sapiens with 16 samples.

Results

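Natriuretic peptides are hormones that heart muscle secretes when it is stretched or still immature, and they lower blood volume and pressure. NPPA encodes the precursor of atrial natriuretic peptide (ANP), NPPB that of B-type natriuretic peptide (BNP) and NPPC that of C-type natriuretic peptide, which is made mainly outside heart muscle. CORIN, a membrane protease of cardiomyocytes, cuts the ANP precursor, and FURIN, a protease of the secretory route found in most cells, cuts the BNP and C-type precursors. NPR1 is the receptor for ANP and BNP and makes the second messenger cGMP, NPR2 does the same for C-type peptide, and NPR3 lacks the cyclase domain and removes the peptides from the medium. The fetal ventricle expresses NPPA and NPPB strongly, and both are commonly read in cultured cardiomyocytes as genes of the immature or stressed state.

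These 8 genes were chosen by name and make up 8 of the 43388 genes in the deposited expression table. Of the 8 genes, 6 averaged at least 1 TPM (transcripts per 1000000 transcripts) over all libraries and were tested. NPPC and NPR1 fell below that level. The cells were cardiomyocytes made from WTC11, a single wild-type line of human induced pluripotent stem cells, by timed control of Wnt signalling (the GiWi protocol). All 16 libraries came from that line, so the groups describe 1 genetic background.

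There were 4 groups of 4 libraries. Day 16 RPMI/B27 was the baseline, taken on Day 16 of differentiation from cells in RPMI medium with the B27 supplement. The other cells were kept until Day 30 in RPMI/B27 (Day 30 RPMI/B27), in RPMI/B27 with glucose at the 5 mM of human plasma-like medium (Day 30 RPMI_glcM/B27), or in human plasma-like medium with B27 (Day 30 HPLM/B27). HPLM differs from RPMI in many nutrients and salts besides glucose. The 3 comparisons with Day 16 address what changes during further culture, and the 3 comparisons at Day 30 address glucose and the other constituents of the medium. Day and medium change together between Day 16 and the glucose-matched or HPLM groups, so time and medium cannot be told apart there.

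Total RNA was sequenced to between 7744768 and 16183655 reads on genes per library, and 1 read per kilobase was worth 0.139 to 0.314 TPM. Cardiomyocyte markers were high in each library, with a summed level of 11717 to 16462 TPM over 10 genes. Of the 5 smooth muscle markers only MYH11 was at 0 in all 16. The 5 summed to 393 to 853 TPM at Day 16 and 244 to 949 in Day 30 RPMI/B27. In RPMI_glcM/B27 they summed to 264 to 352 TPM and in HPLM/B27 to 301 to 507. The mitochondrial ribosomal RNA RNR1 stood above 1000 TPM in 8 libraries of all 4 groups and was highest in replicates 3 and 4 of Day 30 RPMI/B27, at 14387 and 29276 TPM. TPM values are shares of a library, and here the median gene was lower at Day 30 than at Day 16, by -0.28 in RPMI/B27, by -0.22 with matched glucose and by -0.29 in HPLM/B27 on the log2(TPM + 1) scale. Comparisons of the 6 tested genes with Day 16 are therefore also given after median-of-ratios rescaling, which brings the median gene to about 0. In bulk RNA, fewer cells of a type and less RNA per cell cannot be told apart.

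NPPA (chr1:11845709-11847783) and NPPB (chr1:11857464-11858945) both lie on the minus strand of GRCh38.p14 with 9680 bases between them.

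The 250 bases before the NPPA transcript start (RefSeq, GRCh38.p14, chr1:11847784-11848033, minus strand) are shown because the fixed list of regulators below holds the factors known for acting there. The motifs searched, on both strands and in capitals here, are the core of GATA factors spelled GATAA, the core of NKX2-5 spelled AAGTG and the TATA box spelled TATAAA.
NPPA upstream: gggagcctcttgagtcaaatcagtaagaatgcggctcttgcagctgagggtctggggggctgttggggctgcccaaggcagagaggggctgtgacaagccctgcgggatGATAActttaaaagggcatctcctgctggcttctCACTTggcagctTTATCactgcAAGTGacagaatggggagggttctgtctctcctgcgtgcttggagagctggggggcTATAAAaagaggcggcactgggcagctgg
TATAAA stood 29 to 24 bases before the start. AAGTG stood at 85 to 81 bases on the coding strand and at 107 to 103 on the other, and GATAA at 141 to 137 on the coding strand and at 95 to 91 on the other, with no overlap between matches. In the same 250 bases before the start of 35116 RefSeq promoters, 20.4% held GATAA, 37.6% AAGTG and 10.7% TATAAA. Of the 7 genes with a promoter entry, NPPA, NPPC and FURIN held GATAA and TATAAA, and NPPA, NPPC, NPR3, NPR2 and FURIN held AAGTG. FURIN and NPR3 each had multiple entries. A gene counted if any of its entries matched, while the shares above are per promoter. In FURIN, GATAA and TATAAA lay in different entries. The CArG box, spelled CCWWWWWWGG with W for A or T, was in 1.16% of promoters and in none of the 7. Looser spellings of it were not searched. A match is a run of letters and not a measured binding site.

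At the level of the whole set, 2 of the 6 tested genes passed the test in Day 30 RPMI/B27 against Day 16 (19.9% of 16122 genes did), 2 in RPMI_glcM/B27 (21.1%) and 4 in HPLM/B27 (25.4%). Between media at Day 30, 0 passed in RPMI_glcM/B27 against RPMI/B27 (2.2% of all genes), 1 in HPLM/B27 against RPMI/B27 (2.41%) and 0 in HPLM/B27 against RPMI_glcM/B27 (0.0682%, 11 genes). The test was limma's moderated test on log2(TPM + 1) with Benjamini-Hochberg adjustment over all 16122 genes and a threshold of 0.05. Over all genes the calls against Day 16 were 336 higher and 2867 lower in RPMI/B27, 538 and 2862 in RPMI_glcM/B27, and 483 and 3605 in HPLM/B27. After rescaling they were 1389 and 1437, 2156 and 2282, and 2074 and 2012. On that scale 3 of the 6 genes passed in each comparison with Day 16 (17.5%, 27.5% and 25.3% of all genes in the same order), 3 in RPMI_glcM/B27 against RPMI/B27 (12.1%), 2 in HPLM/B27 against RPMI/B27 (12.9%) and 0 in HPLM/B27 against RPMI_glcM/B27 (1.63%). Beside the 0 in the last comparison, 1053 of all 16122 genes had an unadjusted p under 0.05 (limma), among them 2 of the 6, NPPA and NPR3. Limma on rescaled values called 262 genes and limma-voom on the recovered reads 268 (1.74%), and none of the 6 was called by either. NPR3 averaged at least 1 TPM only through the groups where it was high, so the counts that hold it are a description and not support. The plot of fold changes gives the 6 genes in all comparisons.

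**Figure D1:**
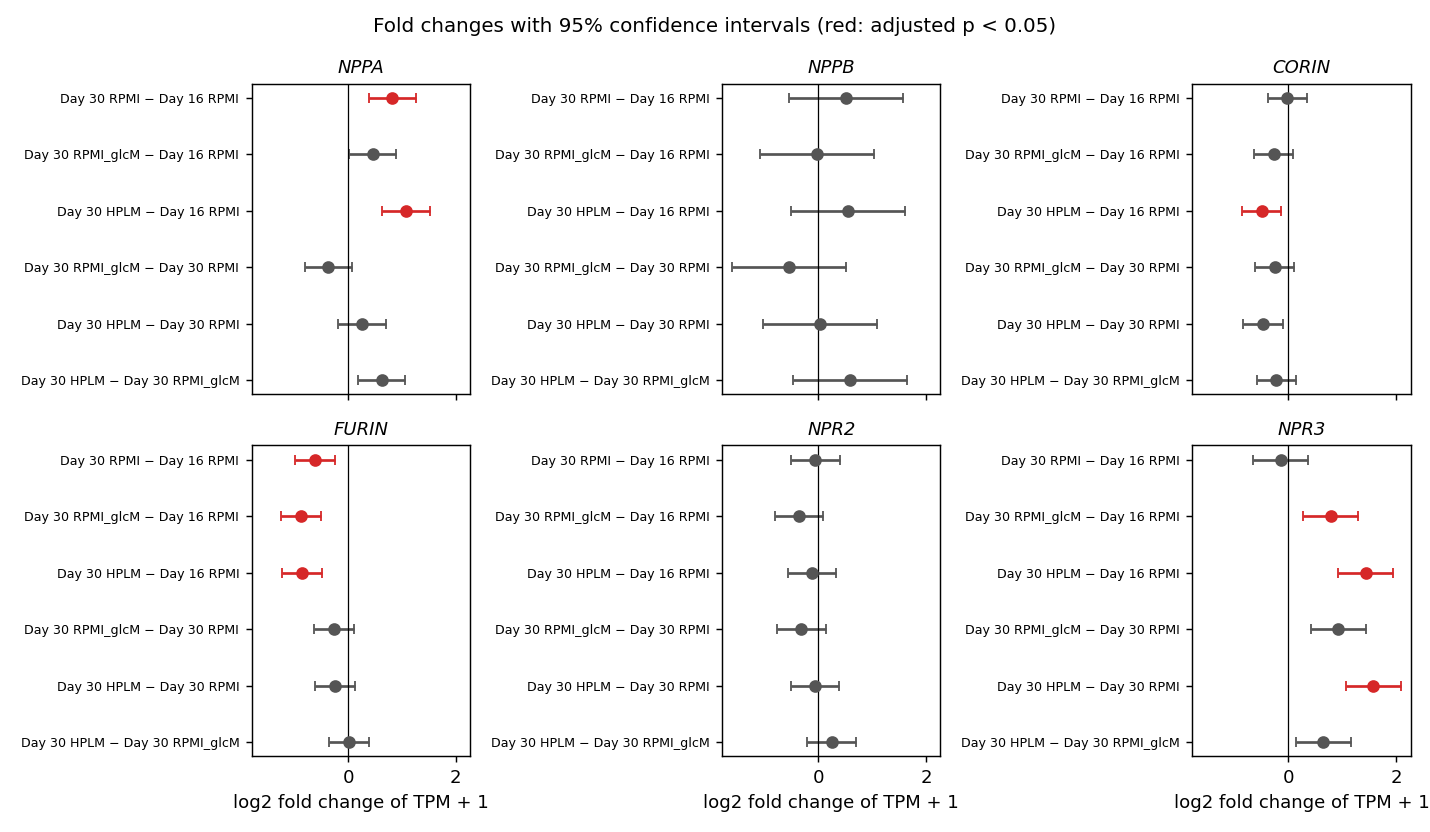
Log2 fold change of TPM + 1 (horizontal axis) for the 6 tested genes in the 6 comparisons (rows), with 95% confidence intervals, on the deposited scale. Red marks adjusted p under 0.05: NPPA passed in 2 comparisons, NPR3 in 3, FURIN in 3 and CORIN in 1, while NPPB and NPR2 passed in none. CORIN in HPLM/B27 against Day 16 no longer passed after rescaling, and NPPA in RPMI_glcM/B27 then did.

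NPPA was the hormone gene that rose with culture. Its level was 88.9, 96.6, 88.6 and 81.7 TPM in the 4 Day 16 libraries. In Day 30 RPMI/B27 it was 162, 135, 252 and 112 TPM, in RPMI_glcM/B27 118, 130, 119 and 122 TPM, and in HPLM/B27 157, 271, 150 and 199 TPM. Each of the 12 Day 30 libraries lay above all 4 Day 16 libraries.

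The group means of NPPA were 88.9 ± 6.12 TPM at Day 16, 122 ± 5.52 in RPMI_glcM/B27, 165 ± 61.2 in RPMI/B27 and 194 ± 55.5 in HPLM/B27 (SD, n = 4 each). Against Day 16 the mean was 1.86-fold higher in RPMI/B27, 1.37-fold in RPMI_glcM/B27 and 2.18-fold in HPLM/B27. The log2 fold change was 0.82 ± 0.21 (SE) in RPMI/B27 (adjusted p = 0.0129, limma) and 1.08 ± 0.21 in HPLM/B27 (adjusted p = 0.00163, limma). In RPMI_glcM/B27 it was 0.46 ± 0.21 and missed the threshold on the deposited scale (adjusted p = 0.133, limma), with a 95% interval of 0.02 to 0.89. After rescaling the 3 values were 1.15, 0.72 and 1.41, and limma's test then passed in all 3 (adjusted p = 0.00344, 0.0367 and 0.00048).

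Among the Day 30 media, NPPA was most spread in RPMI/B27 and HPLM/B27 and tight in RPMI_glcM/B27. All 4 HPLM/B27 libraries lay above all 4 RPMI_glcM/B27 libraries, the lowest at 150 against the highest at 130 TPM. That difference of 0.62 ± 0.21 did not pass over all genes (adjusted p = 0.459, limma), and its 95% interval was 0.18 to 1.06. In the 12 alternatives other than leaving out a library it was 0.62 to 0.70. It passed in none of them, with adjusted p from 0.0831 to 0.627 (limma or limma-voom). RPMI/B27 overlapped both other media, at -0.37 for RPMI_glcM/B27 against it and 0.26 for HPLM/B27 against it (adjusted p = 0.439 and 0.630, limma). In the order of the means, then, only the step from Day 16 to RPMI/B27 or HPLM/B27 passed on the deposited scale, and no neighbouring Day 30 media differed past the threshold.

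NPPB was the most abundant of the 8 genes and varied widely between libraries of the same group. Its mean over all 16 libraries was 233 TPM, rank 200 of 43388 genes, against 143 TPM and rank 374 for NPPA. At Day 16 it was 209, 58.2, 317 and 209 TPM, and in Day 30 RPMI/B27 217, 158, 693 and 142 TPM. With matched glucose NPPB was 186, 202, 177 and 113 TPM, and in HPLM/B27 210, 156, 296 and 388 TPM. All 4 groups overlapped one another.

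The lowest NPPB library was Day 16 replicate 2 and the highest Day 30 RPMI/B27 replicate 3, which was also the second highest NPPA library, at 252 TPM. The NPPB means were 169 ± 39.1 TPM in RPMI_glcM/B27, 198 ± 106 at Day 16, 263 ± 101 in HPLM/B27 and 302 ± 262 in RPMI/B27 (SD, n = 4 each), an order in which RPMI/B27 stood first through replicate 3 and no neighbours differed beyond their spread. The log2 fold changes against Day 16 were 0.51 in RPMI/B27, -0.03 with matched glucose and 0.55 in HPLM/B27, with an SE of 0.50 (adjusted p = 0.473, 0.977 and 0.428, limma). Their 95% intervals ran from -0.55 to 1.57, -1.09 to 1.03 and -0.51 to 1.61, so rises and falls of about the size seen for NPPA could not be told from 0 here. After rescaling the values were 0.85, 0.23 and 0.89 (adjusted p = 0.353, 0.808 and 0.291, limma). Single libraries moved them, with 0.0048 in RPMI/B27 without Day 16 replicate 2 and 0.0050 without RPMI/B27 replicate 3, the library at 693 TPM. In HPLM/B27 the range without 1 library was 0.046 to 0.85. With 165 to 3526 reads per library, counting error was small beside this spread between libraries.

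**Figure D2:**
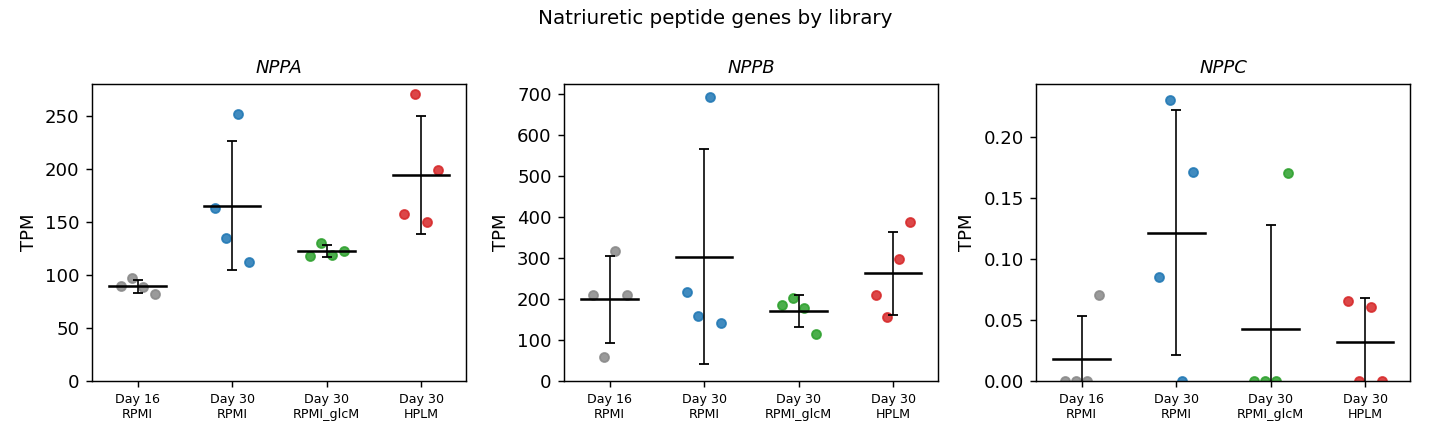
TPM of NPPA, NPPB and NPPC (vertical axes, each from 0) in the 4 libraries of each group, with the mean (line) and SD (bar). The 12 Day 30 points of NPPA lie above the 4 Day 16 points, the NPPB groups overlap with 1 library at 693 TPM, and NPPC stays at or below 0.230 TPM.

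The ratio of NPPA to NPPB within a library does not move with the scaling of the library, since both values share it. Its median was 0.408 at Day 16, 0.770 in RPMI/B27, 0.657 in RPMI_glcM/B27 and 0.630 with HPLM/B27. NPPB exceeded NPPA in 13 of the 16 libraries. The exceptions were Day 16 replicate 2 at a ratio of 1.66, RPMI_glcM/B27 replicate 4 at 1.08 and HPLM/B27 replicate 2 at 1.73. The ranges were 0.280 to 1.66 at Day 16, 0.363 to 0.853 in RPMI/B27, 0.635 to 1.08 in RPMI_glcM/B27 and 0.506 to 1.73 in HPLM/B27, and all overlapped.

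The mean log2 ratio was higher than at Day 16 by 0.31 in RPMI/B27, 0.49 in RPMI_glcM/B27 and 0.53 with HPLM/B27 (p = 0.686, 0.486 and 0.429, two-sided exact permutation test). It differed by 0.17, 0.22 and 0.04 between the media at Day 30 (p = 0.657, 0.771 and 0.971, same exact test). Adjusted over the 6 comparisons, the exact test gave 0.926 for 5 of them and 0.971 for HPLM/B27 against RPMI_glcM/B27. The smallest p that 4 against 4 libraries allow is 0.0286. A shift of the ratio to go with the rise of NPPA was not detectable.

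**Figure D3:**
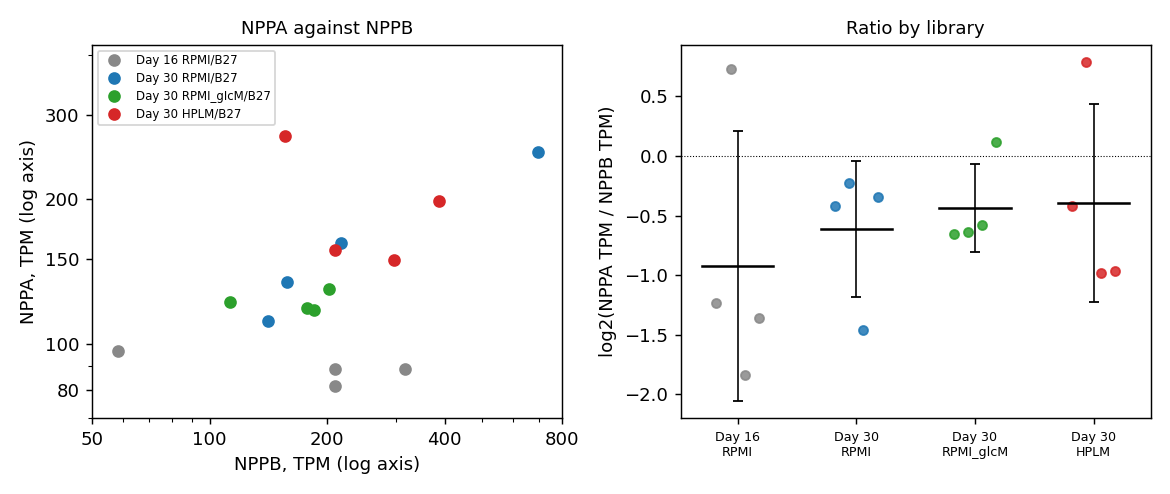
Left, NPPA against NPPB in TPM (both axes log) for the 16 libraries, coloured by group; right, log2 of the NPPA to NPPB ratio by library with the mean (line) and SD (bar) of each group. Of the 16 libraries, 3 lie above a log2 ratio of 0 and the 4 groups overlap.

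NPPC was barely detected. Over all 16 libraries it had 13 reads in all, with 1 at Day 16, 8 in RPMI/B27, 2 in RPMI_glcM/B27 and 2 with HPLM/B27. It was at 0 in 3, 1, 3 and 2 libraries of these groups, and the highest library held 4 reads, or 0.230 TPM. A difference between groups was not detectable at this depth. The library with 4 reads and the groups at 0 are within a few reads of each other, and the gene was not tested.

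CORIN, the ANP-cutting protease, was high in every group and showed only small differences. Its level was 63.8, 73.9, 61.2 and 52.0 TPM at Day 16 and 68.0, 77.4, 56.6 and 46.9 TPM in Day 30 RPMI/B27. With matched glucose CORIN was 58.2, 60.1, 51.0 and 38.6 TPM, and in HPLM/B27 39.7, 45.4, 52.3 and 39.1 TPM. HPLM/B27 had the lowest mean, 44.1 ± 6.15 TPM, after 52.0 ± 9.77 in RPMI_glcM/B27, 62.2 ± 13.3 in RPMI/B27 and 62.7 ± 8.99 at Day 16 (SD, n = 4 each).

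The highest HPLM/B27 library, at 52.3 TPM, lay just above the lowest Day 16 library, at 52.0 TPM. On the deposited scale CORIN fell by 0.50 ± 0.17 (log2, SE) in HPLM/B27 against Day 16 (adjusted p = 0.0433, limma), which is more than the fall of the median gene. This call rested on single libraries, since it passed in 2 of the 8 fits that each left out 1 library of the pair, with adjusted p from 0.0307 to 0.125. It was lost without Day 16 replicate 1, 2 or 3 and without HPLM/B27 replicate 1, 2 or 4. After rescaling the value was -0.16 (adjusted p = 0.229, limma), and CORIN then rose by 0.31 in RPMI/B27 against Day 16 (adjusted p = 0.0347, limma), where the deposited scale gave -0.02 (adjusted p = 0.926, limma). RPMI_glcM/B27 against Day 16 gave -0.28 as deposited and -0.02 after rescaling (adjusted p = 0.277 and 0.915, limma).

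Between media at Day 30, CORIN was lower in HPLM/B27 than in RPMI/B27 by a log2 difference of -0.47 on both scales. It missed the threshold as deposited (adjusted p = 0.180, limma) and passed after rescaling (adjusted p = 0.00426, limma). RPMI_glcM/B27 against RPMI/B27 gave -0.25 as deposited (adjusted p = 0.538, limma) and -0.32 after rescaling (adjusted p = 0.0361, limma). CORIN was lower in the libraries with high RNR1, with r = -0.57 to log2 RNR1 over 16 libraries that share groups and scaling. With RNR1 in the fit, HPLM/B27 against RPMI/B27 was -0.65 (adjusted p = 0.00219, limma, where 6.85% of all genes passed).

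FURIN fell in all 3 Day 30 media. Its level was 24.8, 27.2, 23.4 and 18.9 TPM at Day 16 and 17.6, 19.6, 12.1 and 11.7 TPM in Day 30 RPMI/B27. FURIN in RPMI_glcM/B27 was 15.7, 13.0, 11 and 10.1 TPM, and in HPLM/B27 12.6, 14, 11.3 and 12.0 TPM. All libraries of RPMI_glcM/B27 and HPLM/B27 lay below all Day 16 libraries. In RPMI/B27 replicate 2, at 19.6 TPM, reached into the Day 16 range.

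The FURIN means were 23.6 ± 3.50 TPM at Day 16, 15.3 ± 3.96 in RPMI/B27, 12.5 ± 1.13 in HPLM/B27 and 12.4 ± 2.49 in RPMI_glcM/B27 (SD, n = 4 each). The Day 16 mean was 1.55-fold that of RPMI/B27 and 1.89-fold those of RPMI_glcM/B27 and HPLM/B27. In log2 terms FURIN fell by 0.62 ± 0.17 in RPMI/B27, 0.88 ± 0.17 in RPMI_glcM/B27 and 0.86 ± 0.17 with HPLM/B27 (adjusted p = 0.0225, 0.00214 and 0.00242, limma). These falls are larger than that of the median gene, and after rescaling they were -0.30, -0.63 and -0.54 (adjusted p = 0.023, 6.34e-05 and 0.000246, limma). The order of the Day 30 means rested on differences that did not pass, with -0.26, -0.24 and 0.02 between the media (adjusted p = 0.531, 0.577 and 0.997, limma). After rescaling RPMI_glcM/B27 was lower than RPMI/B27 by a log2 difference of -0.33 (adjusted p = 0.0197, limma).

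The call in RPMI/B27 depended on single libraries. It passed in 3 of the 8 fits that left out 1 library, with adjusted p from 0.00748 to 0.0772, and was lost without Day 16 replicate 1, 2 or 3 and without RPMI/B27 replicate 3 or 4. The latter are the libraries with the highest RNR1 and the lowest FURIN of their group. FURIN had r = -0.65 to log2 RNR1 over the 16 libraries. With RNR1 in the fit the value in RPMI/B27 was -0.30 (adjusted p = 0.213, limma, 8.59% of all genes passing), and without those 2 libraries it was -0.32 (adjusted p = 0.277, limma, 9.66% passing). In RPMI_glcM/B27 and HPLM/B27 it was -0.70 in both with RNR1 in the fit (adjusted p = 0.00112 and 0.00089, limma, 20% and 23.8% of all genes passing).

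**Figure D4:**
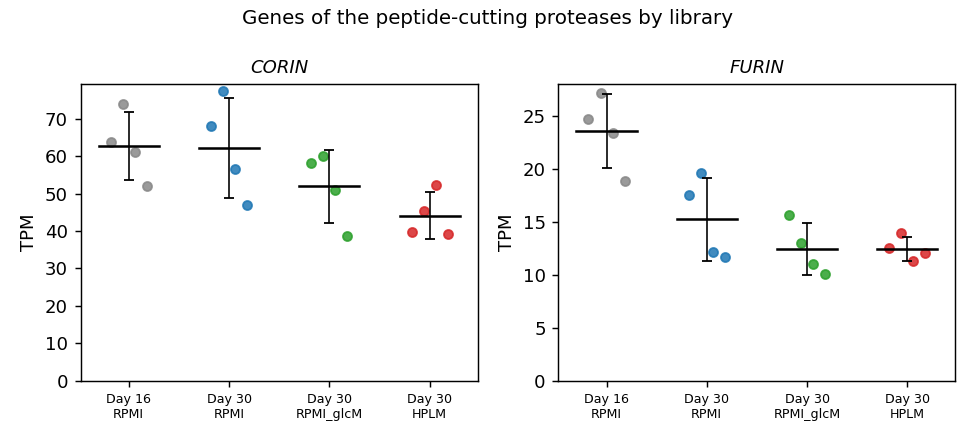
TPM of CORIN and FURIN (vertical axes, each from 0) in the 4 libraries of each group, with the mean (line) and SD (bar). FURIN lies between 10.1 and 19.6 TPM at Day 30 and between 18.9 and 27.2 TPM at Day 16. The CORIN groups overlap, and its fall in HPLM/B27 against Day 16 passed as deposited but not after rescaling.

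NPR3, the clearance receptor, showed the largest changes of the 8 genes and the only one that differed between media on the deposited scale. Its level was 0.190, 0.564, 0.392 and 0.216 TPM at Day 16 and 0.227, 0.286, 0.0993 and 0.240 TPM in Day 30 RPMI/B27. In RPMI_glcM/B27 it was 0.657, 2.27, 1.68 and 0.910 TPM, and in HPLM/B27 2.07, 1.84, 4.02 and 2.83 TPM. Every library in RPMI_glcM/B27 and HPLM/B27 lay above every library in the other groups.

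The counts behind these levels are small but not near 0. NPR3 had 6, 19, 12 and 8 reads at Day 16 and 7, 13, 6 and 11 in RPMI/B27. It had 22, 67, 45 and 28 reads in RPMI_glcM/B27 and 83, 70, 174 and 97 in HPLM/B27. The means were 0.213 ± 0.0798 TPM in RPMI/B27, 0.341 ± 0.174 at Day 16, 1.38 ± 0.738 in RPMI_glcM/B27 and 2.69 ± 0.980 in HPLM/B27 (SD, n = 4 each).

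The NPR3 mean was 7.90-fold higher in HPLM/B27 than at Day 16 and 12.6-fold higher than in Day 30 RPMI/B27. In RPMI_glcM/B27 it was 4.06-fold higher than at Day 16 and 6.49-fold higher than in RPMI/B27. On the log2(TPM + 1) scale, which understates changes of genes this low, NPR3 rose by 1.43 ± 0.24 in HPLM/B27 against Day 16 (adjusted p = 0.00058, limma) and by 1.57 ± 0.24 against RPMI/B27 (adjusted p = 0.00204, limma). In RPMI_glcM/B27 it rose by 0.79 ± 0.24 against Day 16 (adjusted p = 0.0289, limma). Against RPMI/B27 the difference in RPMI_glcM/B27 was 0.92 ± 0.24 and narrowly missed the threshold (adjusted p = 0.0558, limma), while it passed after rescaling (0.92, adjusted p = 0.0148, limma) and in limma-voom on the recovered reads (2.49, adjusted p = 0.00466, where 12.9% of 15423 genes passed). NPR3 entered this test only through RPMI_glcM/B27 and HPLM/B27, the groups where it was high, since its means of 0.341 and 0.213 TPM in the others are below the filter. With no filter on low values limma gave the same differences, with adjusted p = 0.000741 for HPLM/B27 against Day 16 (13.5% of all genes above 0 passing), 0.00272 against RPMI/B27 (0.899%), 0.0303 for RPMI_glcM/B27 against Day 16 (11.8%) and 0.0708 against RPMI/B27 (0.779%).

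In RPMI/B27 itself NPR3 did not pass against Day 16, at -0.14 with a 95% interval of -0.65 to 0.37 (adjusted p = 0.698, limma), or after rescaling, at -0.06 (adjusted p = 0.887, limma). HPLM/B27 against RPMI_glcM/B27 was 1.95-fold by the means, with 2 HPLM/B27 libraries inside the range of the other group. The log2 difference of 0.65 ± 0.24 did not pass (adjusted p = 0.567, limma). In the 11 alternatives other than leaving out a library it was 0.64 to 1.17. It passed in none of them, with adjusted p from 0.0727 to 0.77 (limma or limma-voom). In the order of the means, the neighbours RPMI/B27 and Day 16 did not differ past the threshold, Day 16 and RPMI_glcM/B27 did, and RPMI_glcM/B27 and HPLM/B27 did not. The HPLM/B27 calls passed in all 8 fits that left out 1 library, which kept the filter that NPR3 passed only through the groups where it was high. The RPMI_glcM/B27 call against Day 16 passed in 3 of 8, with adjusted p from 0.015 to 0.0974, and was lost without Day 16 replicate 1, 3 or 4 and without RPMI_glcM/B27 replicate 2 or 3.

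After rescaling, NPR3 was 1.57 higher in HPLM/B27 and 0.86 higher in RPMI_glcM/B27 than at Day 16 (adjusted p = 0.000108 and 0.00962, limma). On the reads themselves, limma-voom gave log2 fold changes of 3.32 and 2.15 against Day 16 (adjusted p = 2.94e-05 and 0.00397, with 29.5% and 29.6% of genes passing), and 3.66 for HPLM/B27 against RPMI/B27 (adjusted p = 5.97e-05, 16.1% passing). By their medians, the summed hepatic endoderm and fibroblast markers were lower in the media where NPR3 was high than in the other groups. The summed level of the 6 hepatic endoderm markers was 413 to 739 TPM at Day 16, 313 to 551 in RPMI/B27, 89.1 to 202 in RPMI_glcM/B27 and 64.2 to 197 in HPLM/B27. That of the 8 fibroblast markers was 240 to 436, 151 to 299, 118 to 163 and 122 to 186 TPM in the same order. Single markers differed from the sums, since ALB rose against Day 16 by 3.44 in RPMI/B27, 1.78 with matched glucose and 1.09 in HPLM/B27 (adjusted p = 3.69e-05, 0.00362 and 0.0465, limma), while POSTN gave 0.50 with matched glucose (adjusted p = 0.131, limma) and passed there after rescaling (0.76, adjusted p = 0.0052, limma). The part of these cells in the NPR3 result was not tested.

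NPR1, the ANP and BNP receptor, was near the limit of detection. It had 6, 13, 9 and 8 reads at Day 16, 2, 5, 5 and 2 in RPMI/B27, 3, 1, 1 and 1 in RPMI_glcM/B27, and 0, 2, 8 and 3 in HPLM/B27. Its mean was 0.534 TPM at Day 16, 0.148 in RPMI/B27, 0.0952 in RPMI_glcM/B27 and 0.160 with HPLM/B27, and on the deposited scale every Day 30 library lay below every Day 16 library. After rescaling HPLM/B27 replicate 3, at 0.386, lay above Day 16 replicate 1, at 0.316. With no filter on low values, limma gave differences on log2(TPM + 1) of -0.41, -0.48 and -0.41 ± 0.09 against Day 16 (adjusted p = 0.0144, 0.00422 and 0.0112), where 9.54%, 11.8% and 13.5% of all genes above 0 passed. No order among the Day 30 media can be read from counts of 0 to 8.

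Markers of endothelial and endocardial cells, which carry this receptor in the heart, were low in all groups and lower at Day 30. Their summed level over 8 genes was 43.2 to 55.5 TPM at Day 16, 14.5 to 33.3 in RPMI/B27, 16.7 to 26.2 in RPMI_glcM/B27 and 19.8 to 31.9 in HPLM/B27. Of the 8 markers only KDR, a receptor for vascular endothelial growth factor, averaged 1 TPM or more and was tested. The sum holds KDR, so the sum and KDR are not separate observations. KDR fell by 1.29, 1.19 and 0.86 (log2) in the 3 Day 30 media, past the threshold of limma's test on both scales. The defining marker VWF was at 0 in every library outside HPLM/B27. The part of these cells in the NPR1 result was not tested.

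NPR2, the C-type receptor, was low and showed no difference past the threshold. It was 2.66, 2.29, 2.52 and 1.58 TPM at Day 16 and 3.10, 2.48, 1.70 and 1.46 TPM in RPMI/B27. The RPMI_glcM/B27 libraries had 1.71, 1.41, 0.855 and 2.32 TPM, and those of HPLM/B27 1.71, 2.37, 1.68 and 2.25 TPM. The groups overlapped, with means of 1.57 to 2.26 TPM.

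The largest NPR2 difference against Day 16 was -0.36 ± 0.21 in RPMI_glcM/B27, with a 95% interval of -0.81 to 0.09 (adjusted p = 0.245, limma). After rescaling NPR2 gave 0.17, -0.18 and 0.11 in the 3 media (adjusted p = 0.571, 0.485 and 0.682, limma). As a description, the ratio of NPR3 to NPR2 within a library had a median of 0.146 at Day 16, 0.0942 in RPMI/B27, 1.00 in RPMI_glcM/B27 and 1.23 with HPLM/B27. NPR3 was below NPR2 in every library at Day 16 and in RPMI/B27. The RPMI_glcM/B27 libraries had ratios of 0.385, 1.62, 1.97 and 0.392, on both sides of their median, and those of HPLM/B27 1.21, 0.778, 2.39 and 1.26.

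**Figure D5:**
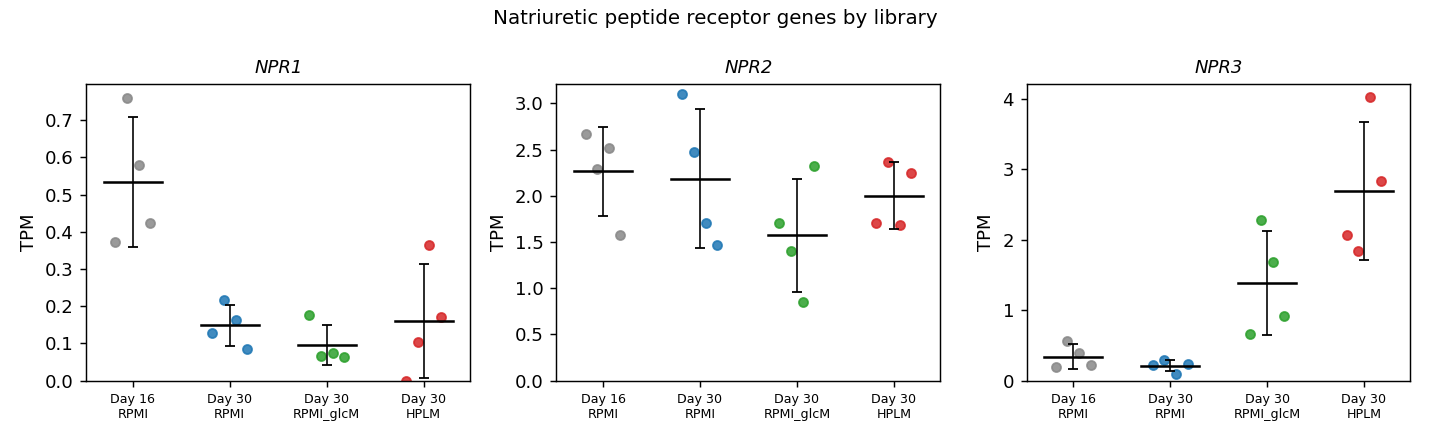
TPM of NPR1, NPR2 and NPR3 (vertical axes, each from 0 and each on its own scale) in the 4 libraries of each group, with the mean (line) and SD (bar). NPR3 lies at 0.657 TPM or above in RPMI_glcM/B27 and HPLM/B27 and at 0.564 TPM or below elsewhere, NPR1 is highest at Day 16, and the NPR2 groups overlap.

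The genes known to control NPPA and NPPB were more often lower than higher at Day 30. The list mixes inducers, such as EDN1, with repressors, such as TBX2, so its balance sets no direction for NPPA. Of 25 fixed regulators, 24 were tested, and against Day 16 1 rose and 11 fell in RPMI/B27, 2 rose and 12 fell in RPMI_glcM/B27, and 2 rose and 12 fell in HPLM/B27. Over all genes 2.08%, 3.34% and 3.0% rose and 17.8%, 17.8% and 22.4% fell in the same comparisons. The regulators' median log2 fold changes were -0.46, -0.50 and -0.51, beside -0.28, -0.22 and -0.29 over all genes. After rescaling the counts were 2 and 10, 2 and 12, and 2 and 8, with medians of -0.12, -0.24 and -0.17. Over all genes 8.62%, 13.4% and 12.9% then rose and 8.91%, 14.2% and 12.5% fell.

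MEF2C, a core factor of heart muscle, had the deepest fall among the abundant regulators, from 67.9 ± 6.26 TPM at Day 16 to 25.6 ± 6.46 in RPMI/B27, 24.5 ± 3.46 in RPMI_glcM/B27 and 29.7 ± 1.86 with HPLM/B27 (SD, n = 4 each). Its log2 fold changes were -1.40, -1.44 and -1.16 (adjusted p = 3.93e-05, 1.46e-05 and 9.63e-05, limma). EDN1, the endothelin precursor, a secreted inducer of NPPA and NPPB, fell from 5.71 ± 1.24 TPM to 1.83 ± 0.319, 0.881 ± 0.478 and 1.31 ± 0.395 TPM. In log2 terms EDN1 changed by -1.24, -1.85 and -1.54 (adjusted p = 0.00103, 1.79e-05 and 9.57e-05, limma). TBX2, a repressor of NPPA in the non-chamber myocardium, changed by -0.966, -0.996 and -1.09 (adjusted p = 0.00277, 0.00141 and 0.000717, limma).

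GATA4 and NKX2-5, whose cores are in capitals in the NPPA upstream sequence, also fell on the deposited scale. GATA4 changed by -0.53, -0.54 and -0.52 in the 3 media, in the order used above (adjusted p = 0.032, 0.0271 and 0.0272, limma), and after rescaling by -0.20, -0.28 and -0.19, where only RPMI_glcM/B27 passed (adjusted p = 0.00645, limma). NKX2-5 changed by -0.65, -0.46 and -0.72 (adjusted p = 0.00757, 0.0408 and 0.00303, limma), and after rescaling by -0.32, -0.20 and -0.38, where RPMI_glcM/B27 no longer passed (adjusted p = 0.158, limma). These 2 were picked for the sequence above and not by size. NFATC2 in RPMI/B27, at -1.06, NFATC1 in RPMI_glcM/B27, at -1.04, and MYOCD, a coactivator of SRF, in HPLM/B27, at -0.98, were also among the 4 largest changes of the list in those media, as was TBX3, a close relative of TBX2, in RPMI/B27, at -1.01 (adjusted p = 0.00721, limma). After rescaling MEF2C gave -1.07, -1.18 and -0.83, EDN1 -0.97, -1.64 and -1.28, and TBX2 -0.64, -0.74 and -0.76 in the 3 media, all past the threshold.

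HAND2 rose in all 3 media, from 145 ± 29.3 TPM to 213 ± 35.1 in RPMI/B27, 225 ± 23.7 in RPMI_glcM/B27 and 203 ± 6.31 with HPLM/B27 (log2 0.56, 0.65 and 0.51, adjusted p = 0.0129, 0.00414 and 0.0168, limma). HAND2, a factor of the ventricle and its precursors, gave 0.90, 0.91 and 0.84 after rescaling. After rescaling, 3 of the 24 tested regulators passed in RPMI_glcM/B27 (12.1% of all genes) and 4 in HPLM/B27 (12.9%), each against RPMI/B27. Between those 2 media 1 passed (1.63%). On the deposited scale only ESRRA, a nuclear receptor of mitochondrial genes, passed between media. Its level was 8.74 ± 1.89 TPM at Day 16, 7.36 ± 1.28 in RPMI/B27, 14.5 ± 1.33 in RPMI_glcM/B27 and 16.2 ± 0.387 with HPLM/B27. ESRRA was higher than in RPMI/B27 by 0.90 in RPMI_glcM/B27 and 1.05 in HPLM/B27 (log2, adjusted p = 0.00393 and 0.000819, limma). Over all genes 354 and 388 passed in these media against RPMI/B27. NPR3 was high in the same media, and a link to ESRRA was not tested.

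Downstream of the receptors, 13 of the 18 fixed cGMP genes were tested. Against Day 16, 1 rose and 3 fell in RPMI/B27, 2 rose and 2 fell in RPMI_glcM/B27, and 1 rose and 3 fell in HPLM/B27, or 4 of 13 each time beside 19.9%, 21.1% and 25.4% of all genes. After rescaling the counts were 7 and 2, 3 and 2, and 5 and 3, beside 17.5%, 27.5% and 25.3% of all genes. The balance of the list thus depended on the scale. The medians were 0.17, -0.27 and -0.06 as deposited.

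Of the 5 tested phosphodiesterase genes, PDE9A fell and PDE1A rose on both scales, and PDE3A, PDE5A and PDE10A passed in no medium against Day 16 as deposited. PDE9A, a phosphodiesterase known to break down the cGMP made by natriuretic receptors, fell from 5.75 ± 0.812 TPM at Day 16 to 2.23 ± 0.563, 1.39 ± 0.202 and 2.01 ± 0.440 TPM in the 3 media (log2 -1.07, -1.49 and -1.17, adjusted p = 0.00055, 1.66e-05 and 0.000145, limma). PDE1A, a calcium-activated phosphodiesterase, rose from 0.810 ± 0.110 TPM to 2.48 ± 1.37, 2.83 ± 0.354 and 4.02 ± 1.10 TPM (log2 0.86, 1.08 and 1.45, adjusted p = 0.0216, 0.0045 and 0.000522, limma). MRVI1, the substrate of cGMP-dependent kinase also called IRAG1, changed by -0.85, -1.06 and -0.92 (adjusted p = 0.00368, 0.000498 and 0.00148, limma).

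Of the subunits of the soluble guanylate cyclase, the nitric oxide route to cGMP, GUCY1A1 and GUCY1B1 each passed in 1 pair of media at Day 30 on the deposited scale. GUCY1A1 was 94.2 ± 8.44 TPM at Day 16, 117 ± 27.1 in RPMI/B27, 78.3 ± 10.5 in RPMI_glcM/B27 and 62.3 ± 5.67 with HPLM/B27. It was lower in HPLM/B27 than in RPMI/B27 by a log2 difference of -0.87 (adjusted p = 0.00523, limma) and than at Day 16 by -0.59 (adjusted p = 0.01, limma). GUCY1B1 was lower in RPMI_glcM/B27 than in RPMI/B27, at 7.38 ± 1.12 against 15.5 ± 5.18 TPM (log2 -0.93, adjusted p = 0.0305, limma), while GUCY1A2 was higher in RPMI_glcM/B27 than at Day 16, at 21.2 ± 3.35 against 12.7 ± 2.08 TPM (log2 0.69, adjusted p = 0.0313, limma). VASP, a substrate of the kinase, changed by -0.63 in RPMI/B27 against Day 16 (adjusted p = 0.0307, limma), a call that did not remain after rescaling (-0.30, adjusted p = 0.449, limma).

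Of 11 fixed genes of peptide handling, 3 were tested. In RPMI/B27 against Day 16, 2 of them passed (19.9% of all genes did), and in RPMI_glcM/B27 against RPMI/B27 1 did (2.2%). None passed in the other comparisons on the deposited scale. SCG2, a secretory granule protein, rose in RPMI/B27 against Day 16, from 1.43 ± 0.282 to 4.23 ± 2.33 TPM (log2 1.02, adjusted p = 0.0093, limma), and was lower in RPMI_glcM/B27 than in RPMI/B27 (log2 -1.21, adjusted p = 0.0156, limma). PAM, a membrane protein of ANP granules that amidates other peptides, rose from 330 ± 33.1 to 454 ± 84.0 TPM in RPMI/B27 (log2 0.45, adjusted p = 0.0296, limma). PAM in RPMI_glcM/B27 and HPLM/B27 passed only after rescaling (0.43 and 0.41, adjusted p = 0.00171 and 0.0025, limma).

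The antisense gene NPPA-AS1 overlaps 1908 of the 2075 bases of NPPA and had 5, 19, 14 and 17 reads in the 4 groups. The library kit keeps the strand, but the strand setting used in counting is not given in the sources used here, so reads of the pair may have been mixed.

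Among 6832 genes averaging 10 TPM or more, those whose log2(TPM + 1) followed a member most closely over the 16 libraries were as follows, as a description. NPPB ran with ANKRD1, a stretch-induced protein of the sarcomere (r = 0.96), and with the contractile gene CNN1 (r = 0.91), which is among the smooth muscle markers above. It also ran with LRRC49, MYL12A and PLEKHO1 (r = 0.84 to 0.89). ANKRD1 is also in the regulator list, where it passed in none of the 6 comparisons. NPPA ran with the caveolar gene CAV1 (r = 0.90), skeletal alpha-actin ACTA1 (r = 0.86), and LOC105377103, RAB9B and CAV2 (r = 0.80 to 0.81). For FURIN the 5 genes were F2R (r = 0.98) and CASTOR2, BACE1, ATF7IP and SEMA5A (r = 0.97 each), and for CORIN they were RPL5 (r = 0.93) and EVI5, EVL, MYO9B and ZNF326 (r = 0.92 each). The libraries share groups, scaling and depth, so these values do not count as independent points, and for FURIN and CORIN they share the relation to RNR1 given above.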

How the data were processed

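Per the labels and the submitters' processing notes, stranded total RNA libraries (Takara SMARTer kit) were aligned to hg38 with STAR 2.5.3a and counted per gene with featureCounts 2.0.3. The table deposited by the authors gives TPM per gene and library; the tool, annotation and strand setting for that step are not given in the sources used here. Whole reads were recovered from the ratios of TPM values for 31047 of 31047 genes above 0 (tolerance 0.02), up to a common divisor per gene, and serve as depth and in an alternative test.

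From TPM, log2(TPM + 1) was fitted for the 16122 genes averaging 1 TPM or more with limma 3.58.1 in R 4.3.3 (all 4 groups in 1 fit, empirical Bayes with trend), giving 6 comparisons with Benjamini-Hochberg adjustment. Simulated data with 200 genes changed by 1.5 (log2), for HPLM/B27 against RPMI_glcM/B27 over 16128 genes, returned 185 of them and 12 false calls. The simulation gave every gene the same dispersion and no shift of the median gene. Its rates check the code and are not the power or error rate for these data. NPPA to NPPB ratios were compared by exact permutation (Python 3.11.15, scipy 1.17.1). Alternatives were another pseudocount, filter, scaling or covariate, pairs of groups only, the replicate block, limma-voom and leaving out each library. The alternatives without replicates 3 and 4 of Day 30 RPMI/B27, and with rescaling and a pseudocount of 0.1 TPM together, were chosen after seeing the data.

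The genes named are the 8 members, up to 4 genes per list and comparison with the largest change among those past the threshold, the 5 genes most like each member with at least 10 TPM, and cell type markers. GATA4, NKX2-5, HAND2 and ANKRD1 (as a regulator) were added after their values were seen. The members and lists were chosen with earlier results of these data known. The labels call the replicates biological and the design text calls them wells, so p-values measure the spread between these samples, which may be technical. The design text gives fewer wells per condition than the 4 libraries per group of the labels, and the labels were used. Read counts carry counting error only, and the depth ranges are given with the results. Protein sequences were not used here. Calls of the other genes at the NPPA-NPPB locus and a coding sequence are not reported here.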

Additional observations from a re-analysis of the deposited data

Results flagged for a closer look

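Of 32 sets of 4 libraries examined (8 genes in 4 groups), 4 held a library far from the other three, where chance gives about 1 in 20. NPPB in Day 30 RPMI/B27 replicate 3 was 693 TPM, against 142 to 217 TPM in the rest of its group. NPPC in Day 16 replicate 4 was 0.0707 TPM (1 read) and in RPMI_glcM/B27 replicate 4 it was 0.170 TPM (2 reads), with all other libraries of both groups at 0. NPR1 in RPMI_glcM/B27 replicate 1 was 0.176 TPM (3 reads), where the others had 1 read each. Differences of 1 to 3 reads are within counting error.

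The change of NPR3 from Day 16 differed between the media. It was 1.43 in HPLM/B27 and -0.14 in RPMI/B27 on the log2 scale, and the difference of 1.57 ± 0.24 passed limma's test (adjusted p = 0.00204), with all 4 HPLM/B27 libraries above all 4 RPMI/B27 libraries. This is the same contrast as HPLM/B27 against RPMI/B27 above and adds nothing to it, and NPR3 passed the filter on low values only through the groups where it was high. With no filter the adjusted p was 0.00272 (limma).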

How the results depend on the processing

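Depth limited NPPC and NPR1, which had at most 4 and 13 reads in a library. NPPA in RPMI/B27 and HPLM/B27, FURIN in RPMI_glcM/B27 and HPLM/B27 (all against Day 16) and NPR3 in HPLM/B27 against both RPMI/B27 groups passed in every fit without 1 library. NPR3 entered all these fits only through the groups where it was high, so its passes are a description and not support. Leaving out 1 library gave 1 to 2 members called in RPMI/B27 against Day 16, 1 to 2 in RPMI_glcM/B27, 3 to 4 in HPLM/B27, 0 to 1 in RPMI_glcM/B27 against RPMI/B27, 1 in HPLM/B27 against RPMI/B27 and 0 in HPLM/B27 against RPMI_glcM/B27.

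Counts of members called that moved by over 1.5 times were, for RPMI/B27 against Day 16 (2), 0 with only 2 groups in the fit, 1 with RNR1 as a covariate and 1 without the 2 RPMI/B27 libraries with the highest RNR1, and for RPMI_glcM/B27 against Day 16 (2), 1 with a minimum of 5 TPM. For RPMI_glcM/B27 against RPMI/B27 (0) they were 1 with a pseudocount of 0.1 TPM, without mitochondrial genes and RN7SK, scaled to cardiomyocyte markers, with RNR1 and without the 2 libraries, and 3 after rescaling (also with a pseudocount of 0.1 TPM) and with limma-voom. For HPLM/B27 against RPMI/B27 (1) they were 0 with a minimum of 5 TPM, which leaves out NPR3, 2 after rescaling (with either pseudocount), without mitochondrial genes and RN7SK, scaled to cardiomyocyte markers, with RNR1 and with limma-voom, and 3 without the 2 libraries. Smaller moves were from 2 to 3 in RPMI/B27 against Day 16 (rescaling with either pseudocount, limma-voom, and all genes above 0), from 2 to 3 in RPMI_glcM/B27 (these, without mitochondrial genes and RN7SK, scaled to cardiomyocyte markers and without the 2 libraries) and from 4 to 3 in HPLM/B27 (the first 3, a minimum of 5 TPM, and without mitochondrial genes and RN7SK). Except for the filter, the causes were not tested.

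Signs turned for small values. NPPB in RPMI_glcM/B27 against Day 16 was 0.23 after rescaling, 0.13 without mitochondrial genes and RN7SK, 0.28 with limma-voom and 0.24 after rescaling with a pseudocount of 0.1 TPM. In the same 4 settings NPR2 in HPLM/B27 against Day 16 was 0.11, 0.043, 0.17 and 0.16. In RPMI/B27 against Day 16 they gave 0.31, 0.17, 0.32 and 0.31 for CORIN and 0.17, 0.094, 0.25 and 0.24 for NPR2, RNR1 as a covariate gave 0.32 and 0.15, and the fit without the 2 libraries 0.22 for both. FURIN in HPLM/B27 against RPMI_glcM/B27 was -0.0061 with RNR1.

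Without 1 library, the ranges that cross 0 were -0.54 to 0.27 for NPPB in RPMI_glcM/B27 against Day 16, -0.21 to 0.55 for NPPB and -0.18 to 0.067 for NPR2 in HPLM/B27 against RPMI/B27, -0.14 to 0.10 for CORIN and -0.18 to 0.063 for NPR2 in RPMI/B27 against Day 16, and -0.070 to 0.13 for FURIN in HPLM/B27 against RPMI_glcM/B27. The log2 ratio of NPPA to NPPB ranged from 0.0079 to 0.86, 0.18 to 1.04 and 0.13 to 1.08 against Day 16 in the 3 media, and between media from -0.11 to 0.30, -0.18 to 0.41 and -0.35 to 0.24.

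In deviations from the group means, same-numbered libraries correlated at -0.154 to 0.421 (median 0.080, 24 pairs). Differently numbered ones gave -0.534 to 0.335 (median -0.034, 72 pairs), an overlapping range. Whether replicate numbers pair the samples was not tested and is not settled by these values. With the replicate block, 2, 2, 4, 1, 2 and 0 members passed in the 6 comparisons, the added calls being NPR3 in RPMI_glcM/B27 (0.92, adjusted p = 0.0416, limma) and CORIN in HPLM/B27 (-0.47, adjusted p = 0.0342, limma), each against RPMI/B27. The blocked NPPA to NPPB ratios kept their values (0.31, 0.49, 0.53, 0.17, 0.22 and 0.04), and 4 pairs cannot reach an exact p of 0.05.

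Over all genes, 3203, 3400, 4088, 354, 388 and 11 passed in the 6 comparisons, and 6117, 6226, 6724, 893, 980 and 76 when scaled to cardiomyocyte markers. The 3 media comparisons gave 1945, 2083 and 262 after rescaling, 1993, 2484 and 268 with limma-voom, 1909, 2050 and 266 after rescaling with a pseudocount of 0.1 TPM, 1201, 1324 and 102 without mitochondrial genes and RN7SK, 721, 732 and 48 with the replicate block, 45, 81 and 33 with 2 groups in the fit, 727, 1104 and 91 with RNR1, and 1669, 3367 and 121 without the 2 libraries. RPMI/B27 against Day 16 gave 998 with 2 groups, 1385 with RNR1 and 1558 without the 2 libraries, which gave 5498 and 6581 for the other media against Day 16.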
